A study of Mus musculus with 6 samples.

Results

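The 9 genes described here are transcription factors and co-regulators that mark the layers of the cerebral cortex: Cux1, Cux2, Rorb, Fezf2, Bcl11b, Tbr1, Foxp2, Tle4 and Neurod6. They were taken by gene name from a table of 54532 genes, where each had 1 row, and all 9 passed the expression filter that left 15694 genes for testing. Cerebral cortex of 12-month-old mice was sequenced in 3 libraries labelled Fam69c KO and 3 libraries labelled WT. The labels give no strain, no Cre line and no detail of the knockout allele. Nothing in them ties a library to its own animal, and p-values therefore reflect library-to-library spread, part of which may be technical. The series title concerns stress granules and the inflammasome; cortical layers are not its stated subject.

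The excitatory neurons of the neocortex lie in layers that differ in where their axons project. Neurons of the upper layers connect cortical areas with each other, layer 4 receives thalamic input, layer 5 sends axons to the brainstem and spinal cord, and layer 6 projects back to the thalamus. During development the factors that specify these classes repress one another, and many stay on in the adult, where they serve as layer markers. Several of them also act outside the cortex: Bcl11b (also called Ctip2) and Foxp2 are both well known from the projection neurons of the striatum, which lies directly beneath the cortex.

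No layer factor passed the test between the groups. With limma over 15694 genes, 0 of 9 had a Benjamini-Hochberg adjusted p under 0.05, against 0% of all genes, and each of the 9 had an adjusted p of 0.999. Of the 9 genes, 1 had an unadjusted p under 0.05, against 3.82% of all genes tested. The median log2 fold change, labelled KO over WT, was -0.029 for the 9 genes, with 4 higher and 5 lower, and -0.0042 for all genes tested. Single libraries differed more than the groups did: Bcl11b, Foxp2, Cux2 and Fezf2 spread widely within each group, while Tbr1, Rorb and Cux1 held nearly the same level in all 6.

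**Figure D1:**
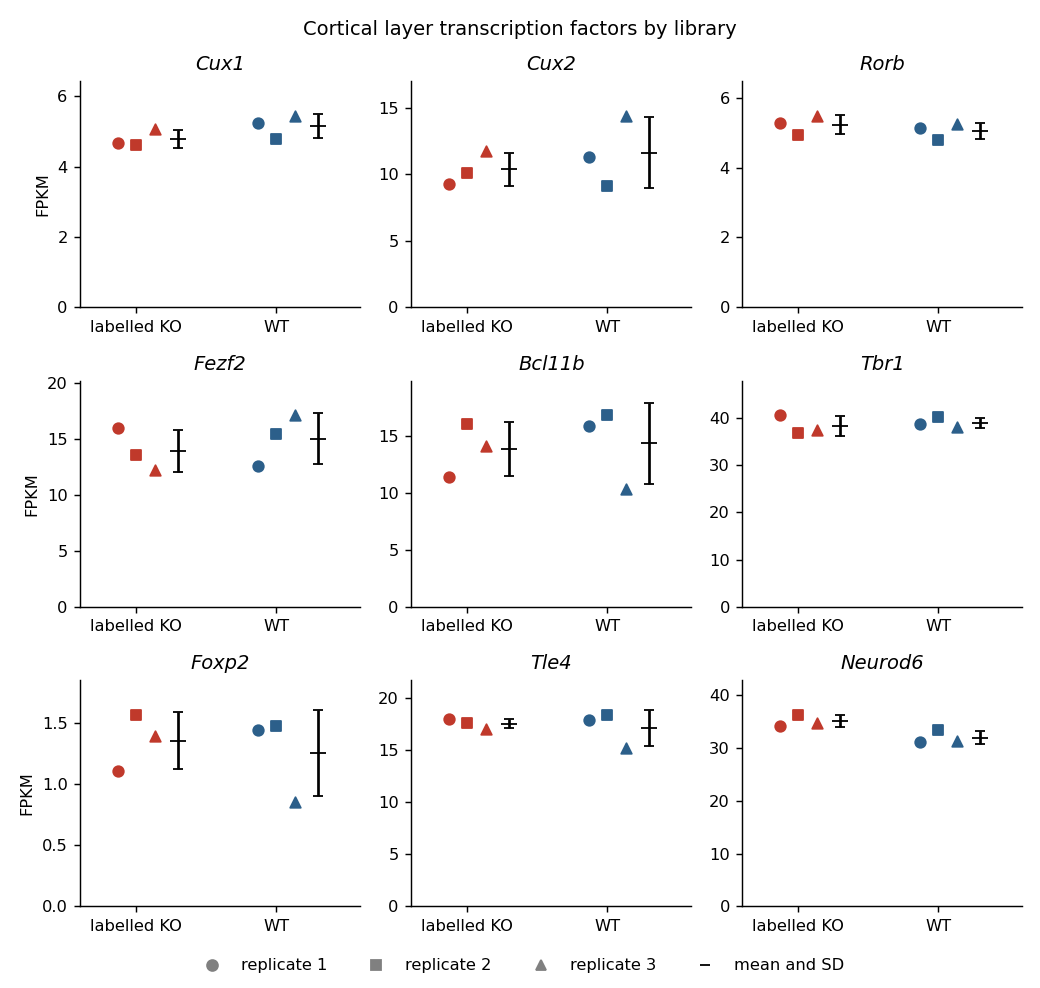
FPKM of each layer factor in every library (points, 3 labelled KO at the left and 3 WT at the right, marker shape by replicate number) with the mean and SD of each group (black); every vertical axis starts at 0. Neurod6 is the 1 gene whose groups do not overlap, as for 4.17% of all genes tested with the libraries labelled KO higher and 4.70% with them lower. Bcl11b and Foxp2 are lowest in WT replicate 3 and in the library labelled KO replicate 1, as for 6.56% of all genes tested.

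Reads assigned to genes numbered between 30935326 and 35065884 per library, as recovered from the deposited values. RNA of the targeted gene did not separate the groups: Fam69c stood at 1.54, 1.84 and 1.42 FPKM in the libraries labelled KO, against 2.03, 1.57 and 2.08 FPKM in WT (log2 fold change -0.19, SE 0.13, limma adjusted p = 0.999). The labels are therefore not checked by that transcript, and all differences below are between libraries as labelled. RNA of excitatory neurons was evident in all 6 libraries. Slc17a7, a vesicular glutamate transporter found in cortical excitatory neurons, stood at 286 to 312 FPKM in the libraries labelled KO and 299 to 310 FPKM in WT. Slc17a7 alone does not identify cortex. WT replicate 3 and the library labelled KO replicate 1 stood apart, being the lowest of the 6 for 19 of 19 tested genes of striatal projection neurons, whereas 6.56% of all genes tested were lowest in that pair. The summed level of that list was 407 to 720 FPKM in the libraries labelled KO and 302 to 770 FPKM in WT, with 0 of its 20 genes at 0 in every library. In bulk RNA, fewer cells of a type and less RNA per cell cannot be told apart.

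The comparisons below turn on 4 layer factors. Neurod6 had groups that did not overlap, as for 4.17% of all genes tested with the libraries labelled KO higher and 4.70% with them lower. Fezf2 and Bcl11b moved apart between libraries, and Cux2 was the most variable upper layer gene. The sequences upstream of a transcript start of each are shown. They are from RefSeq on GRCm38.p6, which matched 8 of the 9 genes with 11 windows of 250 bases before a transcript start, and only the longest stretch outside GENCODE M21 exons of the gene is printed, 5′ to 3′ along the gene, all 4 on the minus strand. The Fezf2 and Cux2 stretches lie inside the deposited span of the gene, before a start within it. Capitals mark stretches that equal a short motif of the proteins' own families.
Neurod6, chr6:55681264-55681513: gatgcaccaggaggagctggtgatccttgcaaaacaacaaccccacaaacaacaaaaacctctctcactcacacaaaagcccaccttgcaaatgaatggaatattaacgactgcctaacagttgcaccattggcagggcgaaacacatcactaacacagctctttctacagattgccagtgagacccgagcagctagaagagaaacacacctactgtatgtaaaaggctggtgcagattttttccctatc
Fezf2, chr14:12345960-12346115: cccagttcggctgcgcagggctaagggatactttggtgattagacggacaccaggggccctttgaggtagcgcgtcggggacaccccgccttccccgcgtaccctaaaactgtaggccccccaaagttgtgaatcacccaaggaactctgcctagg
Bcl11b, chr12:108003603-108003664: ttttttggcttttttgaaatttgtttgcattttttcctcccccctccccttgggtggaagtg
Cux2, second RefSeq start, chr5:122047892-122048075: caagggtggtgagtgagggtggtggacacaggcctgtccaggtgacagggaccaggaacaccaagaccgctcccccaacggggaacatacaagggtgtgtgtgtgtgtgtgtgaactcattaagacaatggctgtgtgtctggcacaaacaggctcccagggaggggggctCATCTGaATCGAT

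The motifs searched, on both strands, were ATCGAT for the CUX family, AGGTCA for the ROR family, GGTGTGA for T-box factors, TGTTTAC for forkhead factors and CAGATG for NEUROD factors. Of the 11 windows, the second window of Cux2 held ATCGAT, 72 bases before the start, and CAGATG on the opposite strand, 79 bases before it. These are the capitals in the Cux2 line, and the 2 matches do not overlap. The window of Cux1 held TGTTTAC, 158 bases before its start, and the other 9 windows held none of the 5 motifs. Among 32841 RefSeq windows of the same length, ATCGAT was present in 0.728%, AGGTCA in 14.0%, GGTGTGA in 3.33%, TGTTTAC in 3.17% and CAGATG in 14.4%. A match is a stretch of letters and no evidence of binding, and a window without one says only that these letters are not in it.

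FPKM is scaled by gene length, so levels of different genes can be set side by side. In WT the order by mean level was Tbr1 at 39.1, Neurod6 at 32.0, Tle4 at 17.2, Fezf2 at 15.0, Bcl11b at 14.3, Cux2 at 11.6, Cux1 at 5.16, Rorb at 5.06 and Foxp2 at 1.26 FPKM. The libraries labelled KO gave the same order apart from Rorb and Cux1, which changed places. Neighbours whose ranges over the 3 WT libraries overlapped were Tle4 with Fezf2, Fezf2 with Bcl11b, Bcl11b with Cux2, and Cux1 with Rorb, so those ranks do not differ beyond their spread. Tbr1 lay above Neurod6, Neurod6 above Tle4, Cux2 above Cux1 and Rorb above Foxp2 in every one of the 6 libraries. For 8 of the 9 genes the length in the table equals that of all exons of the gene together in GENCODE M21, which sets the scale low for genes with many alternative exons: 20024 bases for Cux1, whose longest coding transcript in GENCODE M21 has 12862, and 16346 bases for Foxp2, whose longest has 6760. Tle4 is the exception, with 4640 bases in the table against 5702 in GENCODE M21 and another start or end, so its level and rank are on a shorter length than that rule gives.

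Among the 914 tested genes that the authors' table assigns to a transcription factor family, Tbr1 held rank 30 by its WT mean and was the most abundant of the T-box genes. Neurod6 held rank 34, Fezf2 106, Bcl11b 115, Cux2 149, Cux1 338, Rorb 342 and Foxp2 766. Tle4 carries no family in that table; it encodes a Groucho co-repressor, which is recruited by DNA-binding factors and does not bind DNA itself. By FPKM the layer factors thus ranged from among the most abundant to among the least abundant transcription factors tested. The low end is Foxp2, whose level is set low by the gene length used, as given above. Exon overlap with another gene was found for 1 of the 9, Cux1, which shares 394 bases, 1.97% of its length, with the antisense gene Gm16599 at a mean of 0.00853 FPKM.

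The upper layer genes were Cux1, Cux2 and Rorb. Cux1 (ENSMUSG00000029705, mm10 chromosome 5, 136248135 to 136567490, minus strand) encodes a homeodomain protein with cut repeats that shapes the dendrites of upper layer neurons, and the same locus also makes the Golgi protein CASP. It stood at 4.68, 4.61 and 5.08 FPKM in the libraries labelled KO, against 5.23, 4.78 and 5.46 FPKM in WT. Each group's lowest library was replicate 2 and its highest replicate 3, and the groups overlapped. It gave a log2 fold change of -0.096 (SE 0.071, 95% interval -0.26 to 0.073, limma adjusted p = 0.999).

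Cux2 (ENSMUSG00000042589, mm10 chromosome 5, 121856366 to 122050102, minus strand) is the closest relative of Cux1 and is more restricted to layers 2 to 4. Its level was 9.29, 10.1 and 11.7 FPKM in the libraries labelled KO, against 11.3, 9.14 and 14.4 FPKM in WT. WT held both the lowest and the highest library. Cux2 gave a log2 fold change of -0.14 (SE 0.16, 95% interval -0.52 to 0.24, limma adjusted p = 0.999). Without WT replicate 3 it was 0.021, so the sign rests on that library. The level of Cux2 over that of Cux1 was 1.98, 2.19 and 2.31 in the libraries labelled KO and 2.16, 1.91 and 2.64 in WT.

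Rorb (ENSMUSG00000036192, mm10 chromosome 19, 18930605 to 19111196, minus strand) encodes an orphan nuclear receptor that marks layer 4 of sensory cortex. It stood at 5.27, 4.93 and 5.49 FPKM in the libraries labelled KO, against 5.14, 4.80 and 5.24 FPKM in WT. These values lie close together and the groups overlapped. For Rorb the log2 fold change was 0.043 (SE 0.065, 95% interval -0.11 to 0.20, limma adjusted p = 0.999), an interval from -7.40% to 14.7% on FPKM + 0.5.

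The layer 5 genes were Fezf2 and Bcl11b. Fezf2 (ENSMUSG00000021743, mm10 chromosome 14, 12342094 to 12348189, minus strand) encodes the zinc finger factor that selects the subcerebral projection fate, and it acts upstream of Bcl11b in development. Fezf2 stood at 15.96, 13.6 and 12.2 FPKM in the libraries labelled KO, against 12.5, 15.4 and 17.1 FPKM in WT. The 2 highest of the 6 libraries were WT replicate 3 and the library labelled KO replicate 1, as for 942 of the 15694 genes tested. Fezf2 had a log2 fold change of -0.10 (SE 0.13, 95% interval -0.42 to 0.21, limma adjusted p = 0.999).

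Bcl11b (ENSMUSG00000048251, mm10 chromosome 12, 107910403 to 108003602, minus strand) encodes a zinc finger factor needed for corticospinal axons, and is also a factor of striatal projection neurons and of some interneurons. It stood at 11.4, 16.01 and 14.1 FPKM in the libraries labelled KO, against 15.9, 16.8 and 10.3 FPKM in WT. The lowest libraries were WT replicate 3 and the library labelled KO replicate 1, the same 2 in which Fezf2 was highest. Bcl11b had a log2 fold change of -0.031 (SE 0.20, 95% interval -0.51 to 0.44, limma adjusted p = 0.999), an interval from -29.6% to 36.0% on FPKM + 0.5. Its sign turned when WT replicate 1, WT replicate 2 or the library labelled KO replicate 1 was left out, at 0.056, 0.096 and 0.099. The level of Fezf2 over that of Bcl11b was 1.41, 0.846 and 0.866 in the libraries labelled KO and 0.791, 0.917 and 1.66 in WT, above 1 in those 2 libraries only.

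The layer 6 genes were Tbr1, Foxp2 and Tle4. Tbr1 (ENSMUSG00000035033, mm10 chromosome 2, 61802930 to 61814114, plus strand) encodes the T-box factor of corticothalamic neurons, where it represses Fezf2 and Bcl11b during development. It stood at 40.7, 36.8 and 37.5 FPKM in the libraries labelled KO, against 38.7, 40.2 and 38.2 FPKM in WT. It was the steadiest of the 9, with a span of 0.14 log2 units over the 6 libraries, which 88.6% of all genes tested reached or passed. For Tbr1 the log2 fold change was -0.029 (SE 0.053, 95% interval -0.16 to 0.098, limma adjusted p = 0.999), an interval from -10.2% to 7.05% on FPKM + 0.5.

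Foxp2 (ENSMUSG00000029563, mm10 chromosome 6, 14901349 to 15441977, plus strand) encodes a forkhead factor of layer 6 and of the striatum, known from human speech disorder. It had the lowest level of the 9, at 1.11, 1.57 and 1.39 FPKM in the libraries labelled KO, against 1.45, 1.48 and 0.852 FPKM in WT, from 462 to 856 reads per library. WT replicate 3 was lowest and the library labelled KO replicate 1 next, as for Bcl11b. Foxp2 gave a log2 fold change of 0.091 (SE 0.18, 95% interval -0.33 to 0.52, limma adjusted p = 0.999), and of -0.088 without WT replicate 3. The level of Foxp2 was 2.72%, 4.27% and 3.71% of that of Tbr1 in the libraries labelled KO, against 3.74%, 3.67% and 2.23% in WT. The gene length used for Foxp2, longer than any of its coding transcripts in GENCODE M21, lowers these shares.

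Tle4 (ENSMUSG00000024642, mm10 chromosome 19, 14448072 to 14598051, minus strand) marks corticothalamic neurons of layer 6. It stood at 18.0, 17.6 and 17.1 FPKM in the libraries labelled KO, against 17.9, 18.4 and 15.2 FPKM in WT. A single library, WT replicate 3, lay below the rest. Its log2 fold change was 0.036 (SE 0.077, 95% interval -0.15 to 0.22, limma adjusted p = 0.999), and -0.047 without that library.

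Neurod6 (ENSMUSG00000037984, mm10 chromosome 6, 55677822 to 55681263, minus strand) encodes a basic helix-loop-helix factor, also called NEX, of excitatory neurons in most cortical layers and in the hippocampus. It stood at 34.1, 36.3 and 34.8 FPKM in the libraries labelled KO, against 31.1, 33.5 and 31.4 FPKM in WT. All 3 libraries labelled KO lay above all 3 WT libraries, as for 4.17% of all genes tested. Neurod6 gave a log2 fold change of 0.13 (SE 0.050, 95% interval 0.012 to 0.25), with an unadjusted p of 0.0351 in limma and an adjusted p of 0.999, so the gene did not pass. Leaving out each library in turn gave 0.11 to 0.16. Its mean in the libraries labelled KO was 35.1 ± 1.14 FPKM, 1.10 times that in WT, 32.0 ± 1.29 FPKM (SD, n = 3 each). The summed level of 9 genes of hippocampal neurons was 9.08 to 10.8 FPKM in the libraries labelled KO and 9.85 to 10.8 FPKM in WT, and its part in the Neurod6 values was not tested.

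**Figure D2:**
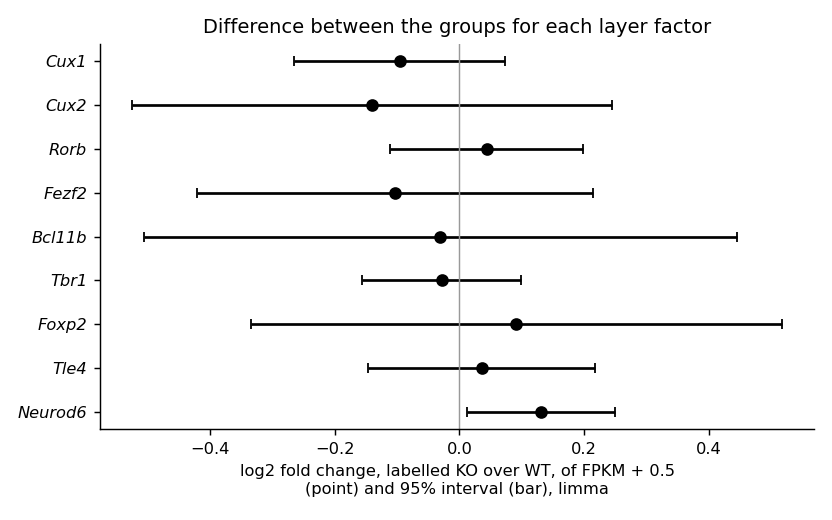
Log2 fold change of each layer factor, labelled KO over WT, on log2(FPKM + 0.5) (points) with the 95% interval from limma (bars), n = 3 libraries per group. The interval is widest for Bcl11b, Cux2 and Foxp2 and narrowest for Neurod6 and Tbr1; that of Neurod6 runs from 0.012 to 0.25, with an adjusted p of 0.999.

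The 9 genes differed in how far their libraries spread. The span between the highest and lowest of the 6 libraries was 0.68 log2 units for Bcl11b, 0.63 for Cux2, 0.61 for Foxp2 and 0.47 for Fezf2. A span as large as that of Bcl11b was found in 12.2% of all genes tested, as that of Cux2 in 14.0%, as that of Foxp2 in 14.7% and as that of Fezf2 in 23.6%. The span was 0.27 for Tle4, 0.22 for Cux1 and Neurod6 and 0.18 for Rorb. Cux1 and Cux2 lay on the same side of their own means in all 6 libraries. The 2 layer 5 genes were opposite in WT replicate 3, where Fezf2 was 0.25 log2 units above and Bcl11b 0.41 below its own mean over the 6 libraries, and within layer 6 Foxp2 was 0.40 below its mean there while Tbr1 was 0.016 below.

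Bcl11b and Foxp2 were lowest in the libraries that were lowest for the striatum list. These were 2 of the 9 layer factors, against 6.56% of all genes tested, and Fezf2 was highest in the same pair. That pair was picked from these same data. The mean of 19 striatal genes, in log2 units around the mean of the 6 libraries, was -0.51, 0.39 and 0.16 in the libraries labelled KO and 0.43, 0.47 and -0.94 in WT. Bcl11b in the same units was -0.28, 0.20 and 0.026 in the libraries labelled KO and 0.19, 0.27 and -0.41 in WT. Both were lowest in WT replicate 3, then in the library labelled KO replicate 1, then in the library labelled KO replicate 3. Foxp2 was -0.16, 0.21 and 0.081 in the libraries labelled KO and 0.12, 0.14 and -0.40 in WT, with the same 3 libraries at the bottom. Since those libraries form a separate low end, no correlation is given.

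The striatal genes themselves varied more widely. Penk, which encodes the enkephalin precursor, stood at 65.2, 120 and 104 FPKM in the libraries labelled KO, against 141, 150 and 49.8 FPKM in WT. Ppp1r1b, which encodes the dopamine-regulated phosphatase inhibitor DARPP-32, stood at 65.5, 111 and 98.0 FPKM in the libraries labelled KO, against 126, 122.8 and 48.3 FPKM in WT. Scn4b, a sodium channel subunit, stood at 57.2, 80.1 and 66.1 FPKM in the libraries labelled KO, against 79.4, 78.5 and 36.7 FPKM in WT. In all 3 the groups overlapped and WT replicate 3 was lowest.

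With the mean of the striatum list as a covariate in limma, the standard error of the Bcl11b difference was 0.049, against 0.20 without it, and that of Foxp2 was 0.088, against 0.18. The Bcl11b log2 fold change was then -0.043 with a 95% interval from -0.16 to 0.078, and that of Foxp2 was 0.081 with an interval from -0.14 to 0.30 (limma adjusted p = 1.00 for both, n = 3 per group). The standard error was also smaller with the covariate for Fezf2, at 0.10 against 0.13, for Tle4, at 0.063 against 0.077, and for Cux2, at 0.15 against 0.16. For Cux1, Rorb, Tbr1 and Neurod6 it was 0.071, 0.065, 0.057 and 0.050 with the covariate, against 0.071, 0.065, 0.053 and 0.050 without it. The covariate was lowest in WT replicate 3 and the library labelled KO replicate 1, where Bcl11b and Foxp2 were lowest and Fezf2 highest. Genes already seen to be extreme in that pair tend to have less spread left over, so the smaller standard errors are no separate evidence. The part of striatal tissue in these values was not tested. With WT replicate 3 and the library labelled KO replicate 1 left out together, the log2 fold change was -0.11 for Bcl11b, 0.013 for Foxp2, 0.093 for Cux2, -0.11 for Fezf2 and 0.14 for Neurod6. The libraries left in still differed in striatal genes, with a median log2 fold change of that list of -0.15.

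**Figure D3:**
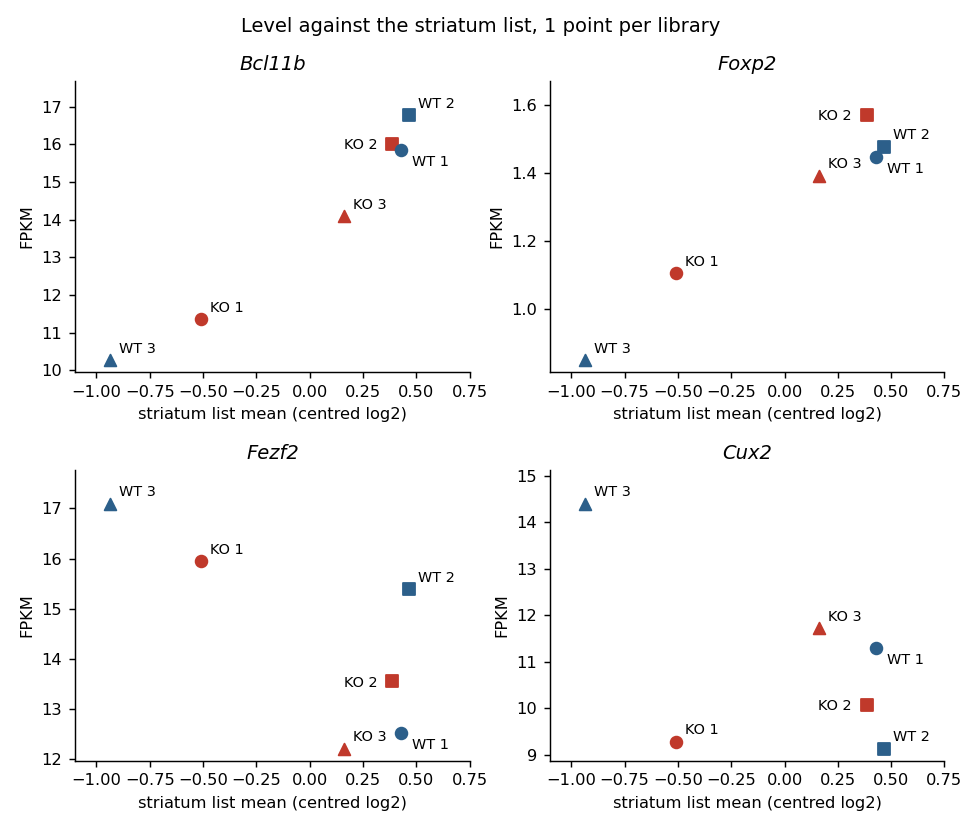
FPKM of Bcl11b, Foxp2, Fezf2 and Cux2 in each library (vertical axes, not starting at 0) against the mean centred log2 level of 19 striatal genes (horizontal axis); red points are libraries labelled KO, blue points WT, and marker shape gives the replicate. Bcl11b and Foxp2 are lowest where the striatum list is lowest, Fezf2 is highest there, and Cux2 is high in WT replicate 3 and low in the library labelled KO replicate 1.

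The balance of upper over deep layer factors was the mean centred log2 level of Cux1, Cux2 and Rorb minus that of Fezf2, Bcl11b, Tbr1, Foxp2 and Tle4. It was -0.055, -0.14 and 0.11 in the libraries labelled KO and 0.0077, -0.26 and 0.33 in WT. WT held both the lowest and the highest library, so the groups overlapped. Bcl11b and Foxp2, at -0.41 and -0.40 in WT replicate 3, enter the value of that library. Without Bcl11b and Foxp2 the balance was -0.18, -0.042 and 0.171 in the libraries labelled KO and 0.089, -0.21 and 0.165 in WT. The highest value was then in the library labelled KO replicate 3, and the groups still overlapped.

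**Figure D4:**
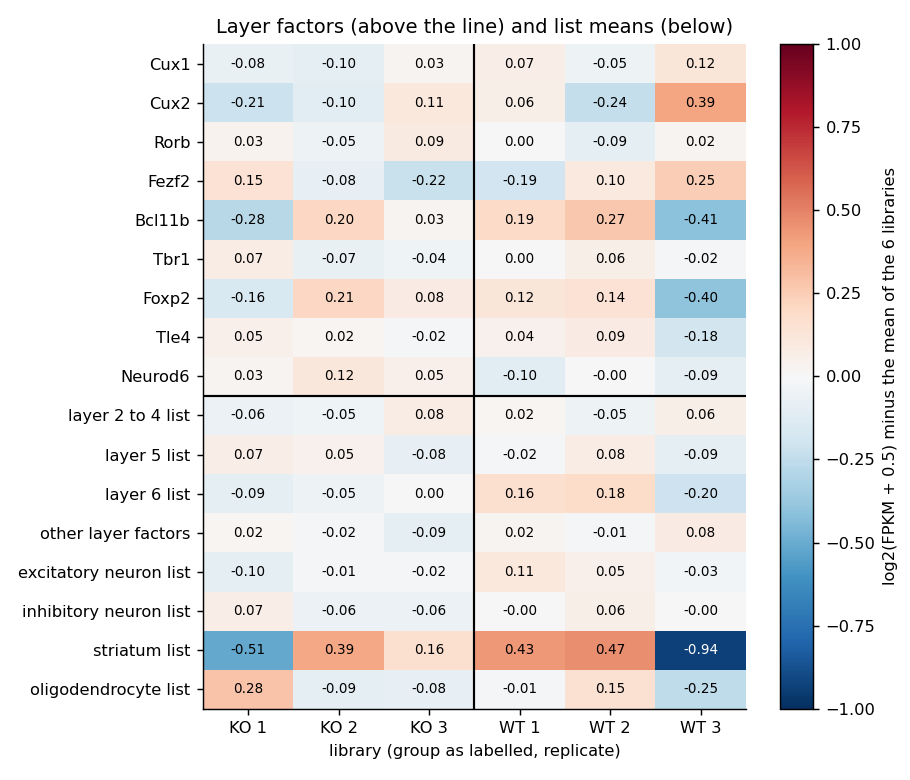
Level in each library (columns, labelled KO at the left and WT at the right) of each layer factor (rows above the line) and of the mean of each gene list (rows below it), as log2(FPKM + 0.5) minus the mean over the 6 libraries; the colour scale runs from -1 to 1. WT replicate 3 combines high Cux2 (0.39) and Fezf2 (0.25) with low Bcl11b (-0.41), Foxp2 (-0.40) and striatum list (-0.94).

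Most layer factors belong to small protein families, whose other genes were read beside them. Of 16 relatives, 10 passed the expression filter, 0 passed the test, and the median log2 fold change was -0.022. Neurod2, a neuronal helix-loop-helix factor like Neurod6, stood at 37.9, 38.3 and 38.2 FPKM in the libraries labelled KO, against 38.4, 38.1 and 40.1 FPKM in WT, with overlapping groups. Neurod1 averaged 3.15 ± 0.222 FPKM in the libraries labelled KO and 3.36 ± 0.301 FPKM in WT (SD, n = 3 each), and Neurod4 lay below the filter. Neurod2 gave a log2 fold change of -0.027 and Neurod1 one of -0.081, against 0.13 for Neurod6; none of the 3 passed, and the difference between these genes was not tested.

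Bcl11a, the relative of Bcl11b that is expressed in upper and deep layers, stood at 7.51, 6.86 and 6.69 FPKM in the libraries labelled KO, against 7.44, 7.004 and 7.97 FPKM in WT. Unlike Bcl11b it was highest in WT replicate 3. Foxp1, a forkhead factor of cortex and striatum, stood at 8.75, 10.4 and 9.62 FPKM in the libraries labelled KO, against 10.2, 10.4 and 8.49 FPKM in WT. It was lowest in the 2 libraries where Foxp2 was lowest. Foxp4 averaged 10.6 ± 0.830 FPKM in the libraries labelled KO and 11.02 ± 0.304 FPKM in WT (SD, n = 3 each), so both tested relatives of Foxp2 were more abundant than Foxp2 in every library.

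Rora, which encodes a nuclear receptor related to that of Rorb, averaged 5.59 ± 0.557 FPKM in the libraries labelled KO and 5.55 ± 0.115 FPKM in WT, close to the level of Rorb (SD, n = 3 each). Tle4 was more abundant than Tle1, Tle2, Tle3 and Tle6, with Tle1 at 5.64 ± 0.315 FPKM in the libraries labelled KO and 5.91 ± 0.210 FPKM in WT, and Tle3 at 3.76 ± 0.394 FPKM in the libraries labelled KO and 3.77 ± 0.270 FPKM in WT. Tle2 stood at 4.53, 4.39 and 6.43 FPKM in the libraries labelled KO, against 3.90, 3.55 and 6.52 FPKM in WT, high in replicate 3 of each group. Tle6 averaged 1.88 ± 0.196 FPKM in the libraries labelled KO and 1.78 ± 0.295 FPKM in WT. Fezf1, Eomes, Tbx21 and Foxp3 lay below the filter, with at most 22 reads in any library.

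**Figure D5:**
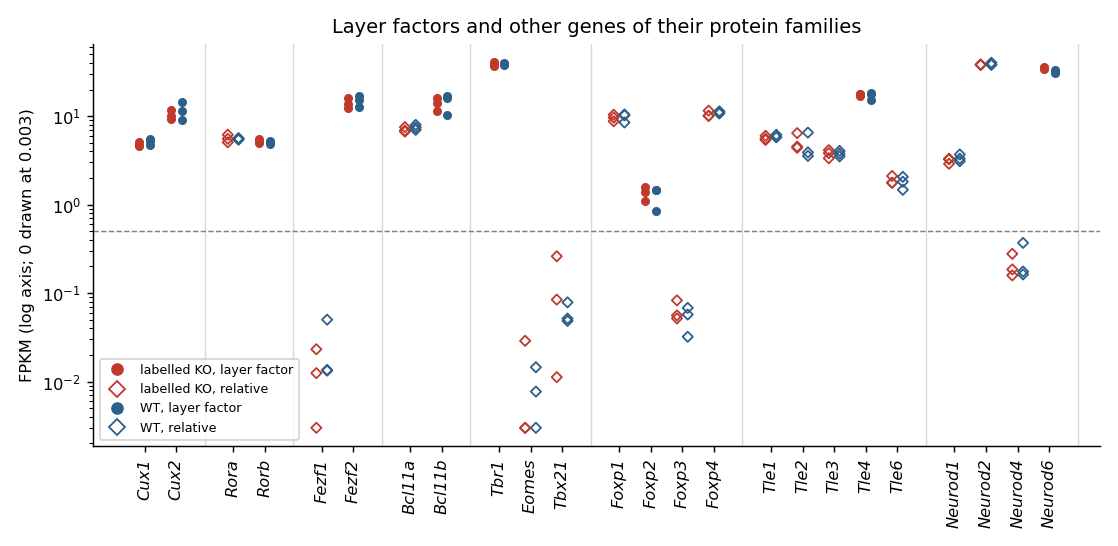
FPKM (log axis, 0 drawn at 0.003) of the layer factors (filled circles) and other genes of their families (open diamonds) in each library, labelled KO in red at the left of each gene and WT in blue at the right; the dashed line is the filter of 0.5 FPKM on the mean. Tbr1 and Fezf2 are the only genes of their groups drawn that lie above the line, while Neurod6, Foxp2, Tle4 and Rorb have expressed relatives.

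A further 29 transcription factors of cortical projection neurons, from a list that leaves out the 9, were all tested. Of these, 0 passed in either direction, with 11 higher and 18 lower, and the median log2 fold change was -0.041. The 4 with the smallest p were Bcl6, Nr2f1, Id2 and Emx1, and each had an adjusted p of 0.999 in limma. Bcl6, a repressor that promotes the exit of progenitors into neurons, stood at 4.14, 4.27 and 3.75 FPKM in the libraries labelled KO, against 5.30, 4.94 and 4.74 FPKM in WT. Nr2f1, a nuclear receptor that patterns cortical areas, stood at 17.2, 16.8 and 17.6 FPKM in the libraries labelled KO, against 20.01, 18.3 and 21.7 FPKM in WT. In both, all 3 libraries labelled KO lay below all 3 WT libraries, as for 4.70% of all genes tested.

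Bcl6 had a log2 fold change of -0.27 (SE 0.073) and Nr2f1 one of -0.21 (SE 0.067). Id2, an inhibitor of helix-loop-helix factors, stood at 48.8, 41.7 and 39.2 FPKM in the libraries labelled KO, against 51.5, 48.4 and 50.3 FPKM in WT, with overlapping groups. Emx1, a homeodomain factor of the cortical lineage, stood at 12.4, 9.71 and 10.8 FPKM in the libraries labelled KO, against 12.1, 12.5 and 12.3 FPKM in WT. Its groups overlapped through the library labelled KO replicate 1.

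Genes that mark the layers without being transcription factors were counted in the same way. Of 12 genes of layers 2 to 4, 0 passed; 4 were higher, 8 were lower, and their median log2 fold change was -0.019. Calb1, a calcium buffer of upper layer neurons, averaged 20.8 ± 1.68 FPKM in the libraries labelled KO and 22.0 ± 1.39 FPKM in WT. The cadherin gene Cdh24 averaged 5.36 ± 1.26 FPKM in the libraries labelled KO and 4.66 ± 0.353 FPKM in WT. Nectin3, a cell adhesion gene, averaged 2.14 ± 0.151 FPKM in the libraries labelled KO and 1.997 ± 0.0874 FPKM in WT. Rspo1, a secreted activator of Wnt signalling, averaged 8.53 ± 2.15 FPKM in the libraries labelled KO and 9.37 ± 0.781 FPKM in WT (SD, n = 3 each). In all 4 genes the groups overlapped.

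Of 13 genes of layer 5, 11 were tested and 0 passed, with a median log2 fold change of 0.00081. Deptor, an inhibitor of mTOR kinase, averaged 4.95 ± 0.248 FPKM in the libraries labelled KO and 4.41 ± 0.469 FPKM in WT (SD, n = 3 each). Sulf2, a heparan sulfate sulfatase, averaged 25.0 ± 1.78 FPKM in the libraries labelled KO and 23.0 ± 1.96 FPKM in WT. Adcyap1, which encodes the neuropeptide PACAP, averaged 10.6 ± 1.56 FPKM in the libraries labelled KO and 9.55 ± 0.553 FPKM in WT. Npr3, a natriuretic peptide receptor, averaged 1.63 ± 0.381 FPKM in the libraries labelled KO and 1.89 ± 0.155 FPKM in WT. The groups overlapped in all 4 of these genes too.

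Of 12 genes of layers 6 and 6b, 0 passed; 4 were higher, 8 were lower, and their median log2 fold change was -0.11. Ctgf, a secreted protein of layer 6b neurons, stood at 10.7, 9.50 and 11.4 FPKM in the libraries labelled KO, against 13.02, 13.4 and 10.3 FPKM in WT. Rprm stood at 29.4, 27.9 and 27.2 FPKM in the libraries labelled KO, against 34.5, 30.8 and 26.5 FPKM in WT. Hs3st4, a heparan sulfate sulfotransferase, stood at 26.3, 23.0 and 22.9 FPKM in the libraries labelled KO, against 27.9, 28.9 and 22.9 FPKM in WT. Cplx3, a complexin of subplate neurons, stood at 7.01, 4.70 and 6.05 FPKM in the libraries labelled KO, against 6.77, 7.44 and 6.15 FPKM in WT.

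The mean of the layer 6 list was -0.091, -0.050 and 0.0025 log2 units in the libraries labelled KO and 0.16, 0.18 and -0.20 in WT, so WT replicate 3 was lowest and the other WT libraries highest. Its median log2 fold change was -0.056 without WT replicate 1, -0.048 without WT replicate 2 and -0.21 without WT replicate 3. Without WT replicate 3 and the library labelled KO replicate 1 it was -0.24, and 0 genes of the list passed the threshold in any of these fits. Tle4 and Foxp2, of the same layer, were likewise lowest in WT replicate 3, while Tbr1 was not. With the striatum list as a covariate the median of the layer 6 list was -0.11, as without it. The striatum list itself differed little between the groups, with a median log2 fold change of 0.047. That covariate could therefore hardly move the layer 6 median, and the part of striatal tissue in it was not tested.

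Markers of other cells of the cortex were read beside the layer factors. The mean of 10 genes of inhibitory neurons stayed between -0.062 and 0.069 log2 units in the libraries labelled KO and between -0.0047 and 0.061 in WT. Gad1, the GABA-synthesizing enzyme, averaged 53.5 ± 3.47 FPKM in the libraries labelled KO and 53.6 ± 2.73 FPKM in WT (SD, n = 3 each). The mean of 7 oligodendrocyte genes was 0.28, -0.090 and -0.079 in the libraries labelled KO and -0.012, 0.15 and -0.25 in WT, so the 2 libraries lowest in striatal genes were the highest and the lowest for oligodendrocyte genes. Mbp, a myelin protein gene of that list, averaged 254 ± 37.3 FPKM in the libraries labelled KO and 272 ± 33.2 FPKM in WT (SD, n = 3 each).

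All 6 genes of excitatory neurons had negative log2 fold changes, with a median of -0.053, and 0 passed. Of the 15694 genes tested, 8156 were lower. The 6 values ran from -0.28 for Ptk2b to -0.013 for Camk2a. Ptk2b stood at 45.7 FPKM in the library labelled KO replicate 1, below every other library. Of 7 astrocyte genes 0 passed, 2 were higher and 5 lower, and 2 had an unadjusted p under 0.05 in limma, against 3.82% of all genes tested. The groups did not overlap in 2 of the 7, as for 4.17% of all genes tested with the libraries labelled KO higher and 4.70% with them lower. Aldh1l1, a folate enzyme of astrocytes, stood at 15.1, 13.04 and 13.8 FPKM in the libraries labelled KO, against 12.8, 11.7 and 11.3 FPKM in WT (log2 fold change 0.22, limma adjusted p = 0.999). Its libraries labelled KO all lay above those of WT, as for 4.17% of all genes tested. Gfap, the astrocyte filament gene, stood at 35.1, 29.4 and 30.6 FPKM in the libraries labelled KO, against 36.6, 34.7 and 38.6 FPKM in WT, with overlap (log2 fold change -0.21, limma adjusted p = 0.999). These 2 astrocyte genes, chosen after their values were seen, differed in opposite directions. Aqp4, the astrocyte water channel, averaged 12.5 ± 0.539 FPKM in the libraries labelled KO and 12.6 ± 0.989 FPKM in WT (SD, n = 3 each).

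Ttr, which encodes transthyretin and marks the choroid plexus, stood at 8.91, 7.58 and 3.504 FPKM in the libraries labelled KO, against 2.10, 3.10 and 2.79 FPKM in WT. All 3 libraries labelled KO lay above all 3 WT libraries, as for 4.17% of all genes tested. The log2 fold change of Ttr was 1.10 (SE 0.31, unadjusted p = 0.0101 and adjusted p = 0.999 in limma). The other 4 of the 5 choroid plexus genes lay below the filter. Prox1, a factor of dentate granule cells, averaged 1.85 ± 0.183 FPKM in the libraries labelled KO and 1.78 ± 0.167 FPKM in WT, and Tcf7l2, a thalamic factor, lay below the filter. Cx3cr1, a microglial receptor, averaged 8.87 ± 0.637 FPKM in the libraries labelled KO and 9.33 ± 0.602 FPKM in WT. Cldn5, an endothelial junction gene, averaged 26.3 ± 3.35 FPKM in the libraries labelled KO and 26.5 ± 3.15 FPKM in WT (SD, n = 3 each). The part of these cell types in the values of the layer factors was not tested.

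For the 3 layer factors that spanned at least 0.5 log2 units, the genes nearest to them in profile over the 6 libraries were named, among 7828 or 7829 other genes that averaged 5 FPKM or more. Nearness was the root mean square distance between log2 levels, each centred on its own mean. Nearest to Bcl11b were Gnal at 0.032 log2 units, which is on the striatum list, Klhl13 at 0.050 and Tgfa at 0.055. Gnal stood at 31.9, 45.2 and 41.6 FPKM in the libraries labelled KO, against 44.6, 45.8 and 29.2 FPKM in WT. Nearest to Foxp2 were Gpr155 at 0.042, Lrrk2 at 0.048 and Dgkb at 0.048. Nearest to Cux2 were Klf15 at 0.057, Vasn at 0.066 and A830036E02Rik at 0.068, and with 6 libraries and so many genes such distances describe these libraries only.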

How the data were processed

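The authors deposited 1 table of FPKM values, with gene position, length and transcription factor family. Per the submitters' processing notes, Bowtie (no version) and mm10 were used; no source used here names the counter, its strand setting or the annotation release. RNA was extracted with Trizol and libraries made with a TruSeq kit, per the labels' protocols.

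From the deposited values, log2(FPKM + 0.5) of the 15694 genes averaging 0.5 FPKM or more was fitted with limma 3.58.1 (R 4.3.3, variance trend, no covariate, two-sided), labelled KO against WT, with Benjamini-Hochberg adjustment over all of them and a threshold of 0.05. Fold changes refer to log2(FPKM + 0.5), which shrinks those of genes at low levels. The 9 genes, the gene lists and the alternatives were chosen with earlier results of these data known. Lists are described by counts and medians, with no set test. Values with ± are mean and SD of 3 libraries.

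Reads were recovered because 100% of values times gene length were whole multiples of 1 step per library, within 0.01 reads. No libraries agreed within sampling noise, the closest pair having a median chi-square of 3.00 times that of noise alone over 16433 genes. Named were the 9 genes, their relatives, the 4 genes with the smallest p in 4 layer lists, the 4 most abundant striatal genes (1 of these and 1 relative are not reported here), the first gene of other cell type lists, and the 3 genes nearest in profile. Plots used matplotlib 3.10.9.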

Additional observations from a re-analysis of the deposited data

How the results depend on the processing

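Under 11 planned settings besides leaving out single libraries (pseudocounts of 0.1 and 1 FPKM, no filter, a filter of 5 FPKM, TPM and median-of-ratios scaling, a replicate block, sample weights, voom, the striatum covariate, and 2 libraries left out together) and without each library in turn, 0 layer factors passed limma's threshold. Genes at an unadjusted p under 0.05 numbered 599, with 1214 without a filter, 262 at the filter of 5 FPKM, 1420 with sample weights, 2092 without WT replicate 3 and the library labelled KO replicate 1, and 426 to 1023 without single libraries (1023 without WT replicate 3, 901 without the library labelled KO replicate 1). Genes past the adjusted threshold numbered 0, and 1, Gm47283, without that pair. The log2 fold change without single libraries ran from -0.24 to 0.099 for Bcl11b, -0.29 to 0.021 for Cux2, -0.088 to 0.19 for Foxp2 and -0.047 to 0.088 for Tle4. Without the pair Cux2 gave 0.093 and Tle4 -0.064, and with sample weights Tle4 gave -0.015. The median of the other layer factors ran from -0.065 to 0.014 without single libraries. The causes of these turns were not tested beyond the libraries left out. Cux1, Rorb, Fezf2, Tbr1 and Neurod6 kept their sign under every setting run in which they were tested, but not their size: without single libraries Fezf2 ran from -0.22 (without WT replicate 1) to -0.0065 (without WT replicate 3), Tbr1 from -0.071 (without the library labelled KO replicate 1) to -0.00022 (without the library labelled KO replicate 2), Rorb from 0.0092 (without WT replicate 2) to 0.081 (without the library labelled KO replicate 2) and Cux1 from -0.14 (without WT replicate 2) to -0.058 (without WT replicate 3). Cux1 and Foxp2 have no value at the filter of 5 FPKM.

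Whether replicate numbers pair the libraries was not settled. Deviations from the group means of same-numbered libraries correlated at 0.12, -0.014 and 0.25 over 7829 genes. Those of differently numbered libraries correlated at -0.21 to 0.14. With the replicate block, 837 genes had an unadjusted p under 0.05 and 0 passed, and Neurod6 gave a log2 fold change of 0.13 (SE 0.040). With 3 libraries per group, 95% intervals reached a median of 0.21 log2 units on each side over all genes tested, and were wider for Bcl11b, Foxp2, Cux2 and Fezf2.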
